A study of Mus musculus with 28 samples.

Results

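The genes described here are 10 members of the bone morphogenetic protein (Bmp) pathway: the ligand genes Bmp2, Bmp3, Bmp4, Bmp5 and Bmp7, the type I receptor genes Bmpr1a and Bmpr1b, the type II receptor gene Bmpr2, and the target genes Id1 and Id3. They were taken by name from the 52636 genes of a table of RNAseq read counts, and all 10 passed the filter on low counts. The libraries were made from single first molar tooth germs of wild type C57BL/6JOlaHsd mice, dissected with little of the tissue around them. There were 7 teeth labelled E13.5 from 7 embryos, 7 labelled E14.5 from 6 embryos and 7 labelled E16.5 from 5 embryos, called E13 (bud stage), E14 (cap stage) and E16 (bell stage). No tooth was treated or mutant, and left and right teeth of 1 embryo were counted as separate teeth. A second table, of counts estimated by salmon, holds the same E13 and E16 teeth and 6 lower first molars labelled E15 from 6 embryos. The question was how the ligand, receptor and target genes of the pathway changed over these stages.

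Bmps are secreted ligands that bring together type I and type II receptors, both of which are serine/threonine kinases. The type II receptor activates the type I receptor, which phosphorylates Smad1, Smad5 or Smad9, and these enter the nucleus with Smad4. The Id genes, which encode inhibitors of basic helix-loop-helix factors, are among the best known direct targets. In the tooth, Bmp4 is known as an early epithelial and then mesenchymal signal, several Bmps are expressed in the enamel knot, the epithelial signaling center of the cap stage, and epithelial Bmpr1a is required to pass the bud stage.

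The libraries held between 17814073 and 27115729 counts, and levels are given as CPM, counts per 1000000 counts of a library after TMM scaling. The left tooth of embryo 3 at E16 stood apart, with a median difference of 0.49 on the log2 scale from the other teeth of its stage, while no other tooth exceeded 0.19. It had the fewest counts and the lowest epithelial, mesenchymal and endothelial marker sums of its stage, so results are given with and without it. Epithelial markers (6 genes, among them Krt14 and Cdh1) summed to 593 to 898 CPM at E13, 1041 to 1339 at E14 and 1456 to 2590 at E16. Dental mesenchyme markers (6 genes, among them Pax9 and Barx1) summed to 2729 to 2967, 2362 to 2643 and 1048 to 1767 CPM. None of these 12 genes was at 0 in a tooth, so both tissues of the label were present in every library. Enamel knot markers (5 genes, among them Shh and Fgf4) summed to 13.51 to 23.53 CPM at E13, 68.7 to 108 at E14 and 87.0 to 247 at E16. From E13 to E14, 4 of these 5 genes were higher and 0 lower (edgeR, adjusted p below 0.05). The list did not rise as a set from E14 to E16, when 2 were higher, 1 was lower and 2 did not pass. Cartilage markers (5 genes, among them Col2a1 and Col9a1) summed to 142 to 170.5 CPM at E13, 56.6 to 120 at E14 and 7.40 to 26.2 at E16. Only 3 of the cartilage genes passed the filter on low counts. From E13 to E14, 2 of these were lower and 0 higher, and from E13 to E16, 2 were lower and 1 was higher (edgeR, adjusted p below 0.05). Macrophage markers (5 genes) summed to 26.1 to 43.0, 44.0 to 56.5 and 51.2 to 113 CPM. Because the libraries are of whole teeth, a smaller number of cells that express a gene and less RNA per cell cannot be told apart. The part of these shifts in the differences below was not tested.

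RefSeq promoter windows, from 250 bases before to 50 bases after the transcription start on GRCm38.p6, were at hand for 6 members, and 4 are shown. They are a target gene (Id3), the 2 type I receptor genes, and a ligand gene (Bmp5) that, like Bmpr1b, was lower at E14 than at E13. The windows were searched on both strands for GTCTG, the core of the Smad binding element, and for GGCGCC, a GC-rich Smad1 and Smad5 motif. These 2 motifs do not overlap, and the matches are in capitals.
Id3, chr4:136143572-136143871, + strand: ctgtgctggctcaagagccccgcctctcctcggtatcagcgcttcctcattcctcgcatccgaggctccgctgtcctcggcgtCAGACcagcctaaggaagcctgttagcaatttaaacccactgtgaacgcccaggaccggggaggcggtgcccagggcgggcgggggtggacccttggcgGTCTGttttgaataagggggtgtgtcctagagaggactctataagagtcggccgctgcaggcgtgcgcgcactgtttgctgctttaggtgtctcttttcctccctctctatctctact
Bmpr1a, chr14:34502497-34502796, - strand: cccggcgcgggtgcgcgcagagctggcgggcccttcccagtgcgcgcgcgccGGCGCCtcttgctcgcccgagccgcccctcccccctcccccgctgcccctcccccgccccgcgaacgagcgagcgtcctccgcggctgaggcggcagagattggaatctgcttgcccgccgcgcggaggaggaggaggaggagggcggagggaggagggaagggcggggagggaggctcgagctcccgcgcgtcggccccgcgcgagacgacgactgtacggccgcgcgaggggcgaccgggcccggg
Bmpr1b, chr3:141982215-141982514, - strand, the furthest upstream of 3 windows: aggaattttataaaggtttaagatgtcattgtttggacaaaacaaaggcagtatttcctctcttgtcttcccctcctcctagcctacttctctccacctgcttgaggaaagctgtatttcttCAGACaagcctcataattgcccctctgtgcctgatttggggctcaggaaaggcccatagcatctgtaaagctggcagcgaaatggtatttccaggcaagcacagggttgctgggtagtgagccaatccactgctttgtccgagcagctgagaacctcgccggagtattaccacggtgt
Bmp5, chr9:75775115-75775414, + strand: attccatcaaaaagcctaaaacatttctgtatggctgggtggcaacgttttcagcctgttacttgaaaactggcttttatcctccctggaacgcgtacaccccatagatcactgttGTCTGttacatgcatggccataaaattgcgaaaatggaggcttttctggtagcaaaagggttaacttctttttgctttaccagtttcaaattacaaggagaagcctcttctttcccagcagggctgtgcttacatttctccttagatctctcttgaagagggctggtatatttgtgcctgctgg
The Id3 window held 2 matches to GTCTG, first at base -167 and then at -68, and the windows of Bmpr1b and Bmp5 held 1 each, at -128 and -134. Of all 32851 windows, 49.6% held such a match. Bmpr1a and Bmpr2 each held 1 match to GGCGCC, at -198 and -105, as did 11.9% of all windows, and the Bmp4 window held neither motif. The 2 type I receptor windows differed in base composition. That of Bmpr1a was 79.3% G and C, a share reached by 1.3% of all windows, and that of Bmpr1b was 48.3%, below the median of 52.7%. The gene annotation places the 5' end of Bmpr1b further upstream, at base 142169425 of chromosome 3. It also places those of Id3, Bmpr1a and Bmpr2 upstream of their windows, at base 136143497 of chromosome 4, 34503341 of chromosome 14 and 59763400 of chromosome 1. The value for Bmpr1b therefore holds for this 1 of its starts only, and those for Id3, Bmpr1a and Bmpr2 for the RefSeq start used.

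Per kb of exon, the 10 genes covered a wide range of levels. At E13, Id3 was the highest with 61.3 ± 5.69 CPM per kb (SD, n = 7), followed by Id1 with 35.9 ± 6.72, Bmpr1a with 34.1 ± 2.09, Bmp4 with 25.4 ± 1.22 and Bmpr2 with 21.7 ± 1.65. The ranges of Id1 and Bmpr1a overlapped, and Id1 was above Bmpr1a in 3 of 7 teeth. Far below these stood Bmp7 with 6.92 ± 0.485 and Bmp2 with 5.08 ± 1.13 CPM per kb, and then Bmp3, Bmp5 and Bmpr1b with 2.25 ± 0.685, 2.12 ± 0.590 and 1.76 ± 0.650, whose ranges overlapped from neighbour to neighbour. At E14 the order was the same except that Bmp3, with 4.65 ± 0.588 CPM per kb, stood above Bmp2, with 4.16 ± 0.825, and their ranges overlapped. At E16, Bmp3 with 15.5 ± 3.18 stood above Bmp7 with 13.6 ± 3.66 and below Bmpr2 with 28.0 ± 3.36 CPM per kb. Bmp5 and Bmpr1b remained the lowest, at 1.84 ± 0.528 and 0.891 ± 0.244. The other members lay between 3.39 CPM per kb for Bmp2 and 72.3 for Id3.

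**Figure D1:**
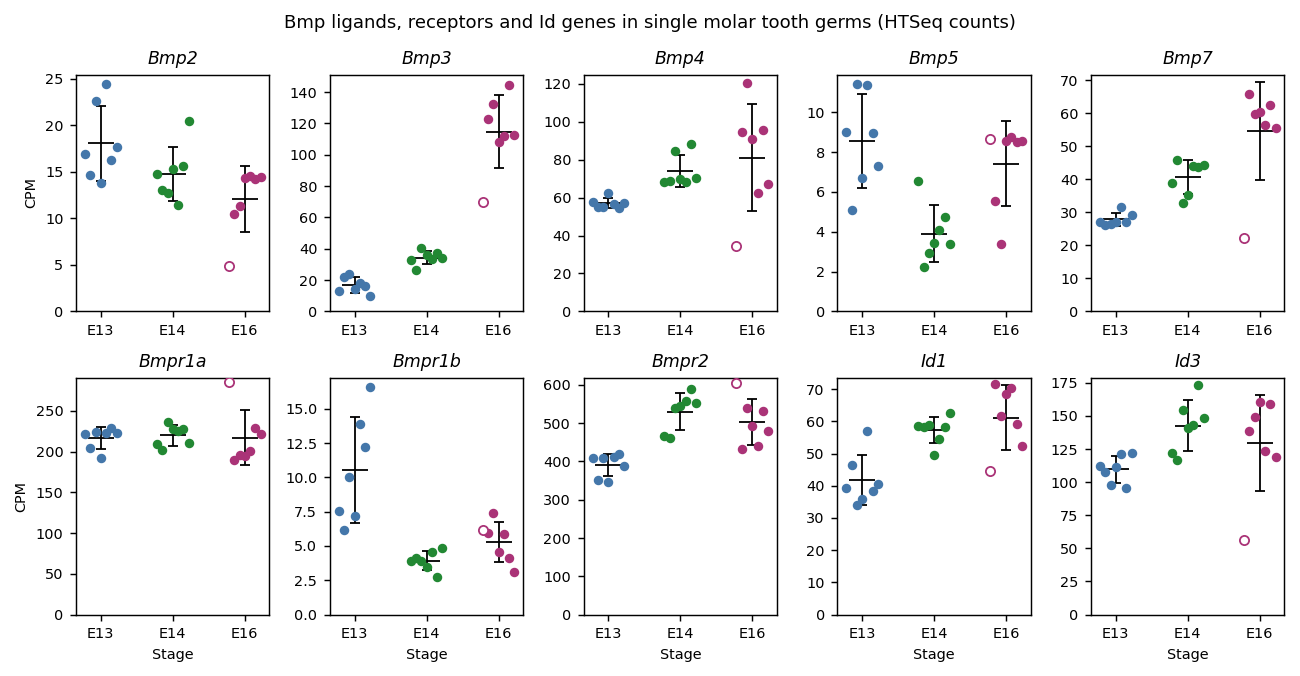
CPM of the 10 genes in single teeth at E13, E14 and E16, 7 teeth per stage, with each y axis from 0. Bars are the mean and SD, and the open circle is the left tooth of embryo 3 at E16, which is the lowest E16 tooth for Bmp2, Bmp3, Bmp4, Bmp7, Id1 and Id3 and the highest for Bmpr1a and Bmpr2. The 3 stages of Bmp3 do not overlap.

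Between E13 and E14, from bud to cap, 6 of the 10 genes changed in the quasi-likelihood test of edgeR (adjusted p below 0.05 over 19101 genes). Bmp3, Bmp7, Bmpr2 and Id1 were higher and Bmp5 and Bmpr1b lower. Of all genes tested, 19.7% were called, 11.3% as higher and 8.47% as lower, and the share of members was above that of all genes. The members were chosen with earlier results of these data known, so this difference in shares is not a test of the pathway. Between E14 and E16, from cap to bell, the 3 ligand genes Bmp3, Bmp5 and Bmp7 were higher and 0 members were lower, a count that was also 0 at an unadjusted p below 0.05 in edgeR and with DESeq2. This share was close to the 28.1% of all genes called, 15% as higher and 13.1% as lower. Over the whole period from E13 to E16, 7 members changed (background 41.3%). Bmp3, Bmp4, Bmp7, Bmpr2 and Id1 were higher, against a background of 21.6%, and Bmp2 and Bmpr1b were lower, against 19.6%. This last comparison uses the same teeth as the other 2 and is not independent of them. The median log2 fold change of the 10 members was 0.38 from E13 to E14, 0.11 from E14 to E16 and 0.30 from E13 to E16, and over all genes tested it was -0.008, 0.004 and -0.01. Without the left tooth of embryo 3 at E16, 8, 4 and 8 members changed, with 30.4%, 34.3% and 48.7% of all genes called.

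**Figure D2:**
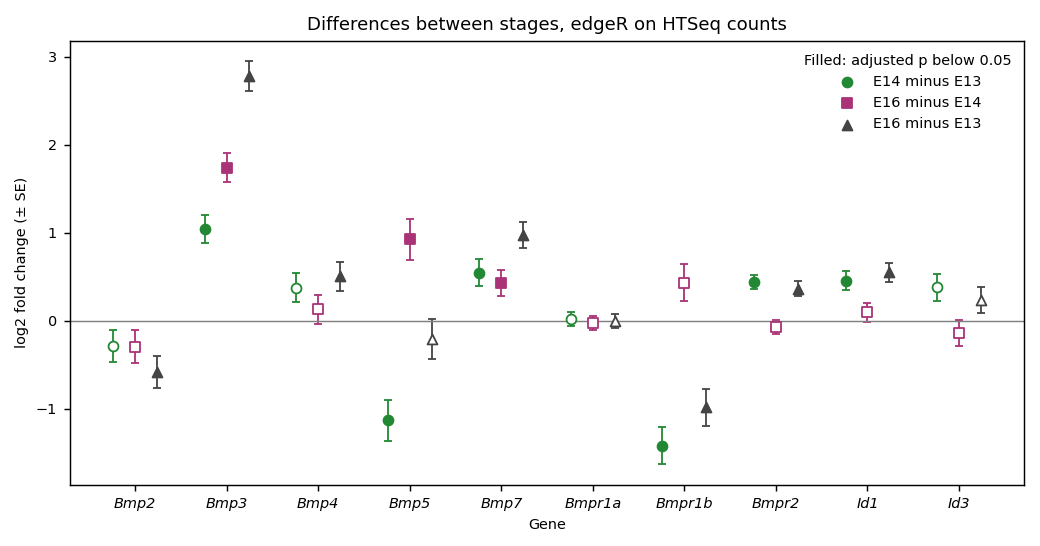
Log2 fold changes of the 10 genes (y axis, with SE) between the stages, from edgeR on the read counts of the 21 teeth. Filled symbols have an adjusted p below 0.05. Bmp5 and Bmpr1b fall to E14 and have positive values from E14 to E16, and Bmp3 rises at both steps.

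Among the ligands, Bmp3 had the largest change from E13 to E16. It encodes an atypical member of the family that can oppose the signaling of other Bmps. The lowest, median and highest tooth had 9.56, 15.97 and 23.9 CPM at E13, 26.5, 34.3 and 40.3 at E14, and 70.0, 113 and 145 at E16. Every E14 tooth was above every E13 tooth, and every E16 tooth was above every E14 tooth. Bmp3 rose by 1.04 ± 0.16 on the log2 scale (SE) from E13 to E14 (adjusted p = 5.02e-05) and by 1.74 ± 0.16 from E14 to E16 (adjusted p = 1.11e-08), which together made a 6.89-fold difference. The 2 steps differed by 0.70 ± 0.28 (adjusted p = 0.103), which missed the threshold with all teeth. Without the left tooth of embryo 3 at E16 the adjusted p of this difference was 0.0185, and without that of embryo 10 at E13 it was 0.0343.

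Bmp7, a ligand expressed in the enamel knot, rose at both steps. Its lowest, median and highest values were 26.3, 27.01 and 31.7 CPM at E13, 32.8, 43.8 and 45.8 at E14, and 22.2, 59.7 and 65.7 at E16. The E13 and E14 ranges did not overlap, and at E16 the left tooth of embryo 3 lay below all E13 teeth while the other 6 teeth, between 55.5 and 65.7 CPM, lay above all E14 teeth. The log2 fold change was 0.55 ± 0.15 from E13 to E14 (adjusted p = 0.0113) and 0.43 ± 0.15 from E14 to E16 (adjusted p = 0.0344). The second step was not firm with all teeth. The adjusted p was between 0.0519 and 0.0642 when the right tooth of embryo 3 or 5 at E14, or the left tooth of embryo 5, either tooth of embryo 6 or the right tooth of embryo 8 at E16, was left out. Without the left tooth of embryo 3 at E16 the step was 0.58 with an adjusted p of 1.15e-06.

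Bmp4, per kb the most abundant of the 5 ligand genes at each stage, though in CPM below Bmp3 in all 7 E16 teeth, had 54.4, 56.7 and 62.6 CPM in the lowest, median and highest E13 tooth and 68.3, 69.6 and 88.5 in those of E14. At E16 these values were 34.4, 91.1 and 121 CPM. The ranges of E13 and E14 did not overlap, but with all 21 teeth in the fit the difference of 0.38 ± 0.16 had an adjusted p of 0.108. It passed without the left tooth of embryo 3 at E16 (0.38, adjusted p = 0.00781), a tooth of neither stage. That tooth enters through the shared filter, scaling, estimate of the spread and adjustment over all genes, and the part of each was not tested. From E13 to E16 Bmp4 rose by 0.51 ± 0.16 (adjusted p = 0.0151), and 5 of 7 E16 teeth were above all E13 teeth. From E14 to E16 the value was 0.13 ± 0.16 (adjusted p = 0.597), and 0.28 with an adjusted p of 0.0486 without the same tooth.

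Bmp2, which encodes the closest relative of Bmp4 among the members, went the other way. The lowest, median and highest tooth had 13.8, 16.9 and 24.5 CPM at E13, 11.5, 14.8 and 20.5 at E14 and 4.90, 14.26 and 14.54 at E16, so the ranges of all stages overlapped. Neither single step passed the test (-0.29 ± 0.18 with an adjusted p of 0.285, and -0.29 ± 0.18 with 0.249), but from E13 to E16 Bmp2 fell by 0.58 ± 0.18 on the log2 scale (adjusted p = 0.0129). Without the left tooth of embryo 3 the value was -0.44 (adjusted p = 0.0115). Within E13 and E14, the teeth highest in Bmp2 were also the highest in osteoblast markers (5 genes, among them Sp7 and Ibsp). The left teeth of embryos 3 and 7 at E13, with 22.6 and 24.5 CPM of Bmp2, had sums of 389 and 335 CPM, where the other E13 teeth had at most 238. The left tooth of embryo 8 at E14, with 20.5 CPM of Bmp2, had a sum of 870 CPM, where the other E14 teeth had at most 368. Between stages the 2 did not go together. The median osteoblast sum was highest in the bell stage, with 400 CPM against 221 (bud) and 211.5 (cap). Bmp2 had medians of 14.26, 16.9 and 14.8 CPM in that order. Among the bell stage teeth, the left one of embryo 3 was lowest in both, with 171.5 CPM of these markers and 4.90 of Bmp2. The left tooth of embryo 7 at E13 also had 186 CPM of skeletal muscle markers, against at most 25.9 in the other teeth of E13, and it was the highest E13 tooth for Id1. The part of these tissues in the values was not tested.

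Bmp5, the lowest of the 5 ligand genes in CPM, fell and rose again. Its teeth had a lowest, median and highest value of 5.07, 8.96 and 11.4 CPM at E13, 2.25, 3.42 and 6.57 at E14 and 3.36, 8.55 and 8.76 at E16. Of the E14 teeth, 6 of 7 were below all E13 teeth, and 5 of 7 E16 teeth were above all E14 teeth. Bmp5 fell by 1.13 ± 0.23 on the log2 scale from E13 to E14 (adjusted p = 0.00103) and rose by 0.93 ± 0.23 from E14 to E16 (adjusted p = 0.00379). The steps differed by 2.06 ± 0.42 (adjusted p = 0.00138). In this test of the 2 steps, 3 members were called, Bmp5 and Bmpr1b as higher and Bmpr2 as lower, with 13.7% of all genes called, 6.84% as higher and 6.89% as lower. Bmp5 rested on 56 to 278 counts per tooth, and 1878 of its 4025 exon bases lie opposite the antisense gene Gm26903, to which at most 10 counts were assigned in any tooth. How reads of the 2 strands were separated is not named in the sources used here.

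The makeup of the ligand pool was compared as shares of the summed CPM per kb of 10 Bmp ligand genes, the 5 members and Bmp6, Bmp8a, Bmp8b, Bmp10 and Bmp15. Bmp4 made up 45.8 ± 2.85% of this pool at E13 (SD, n = 7), 49.8 ± 3.70% at E14 and 45.1 ± 6.23% at E16. Bmp3 went from 4.05 ± 1.19% to 7.04 ± 0.780% and 20.3 ± 2.43%, and Bmp7 from 12.48 ± 0.8292% to 15.4 ± 2.12% and 17.3 ± 1.85%. Bmp2 went from 9.10 ± 1.66% to 6.29 ± 1.17% and 4.34 ± 0.953%, and Bmp5 was at 3.80 ± 0.935%, 1.47 ± 0.512% and 2.66 ± 1.48%. Bmp6, a ligand that is not a member, was the second largest share at E13 and E14, at 23.9 ± 1.73% and 18.6 ± 2.36%, and 9.21 ± 2.75% at E16. The shares sum to a fixed total, so that a gain of Bmp3 lowers the others.

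**Figure D3:**
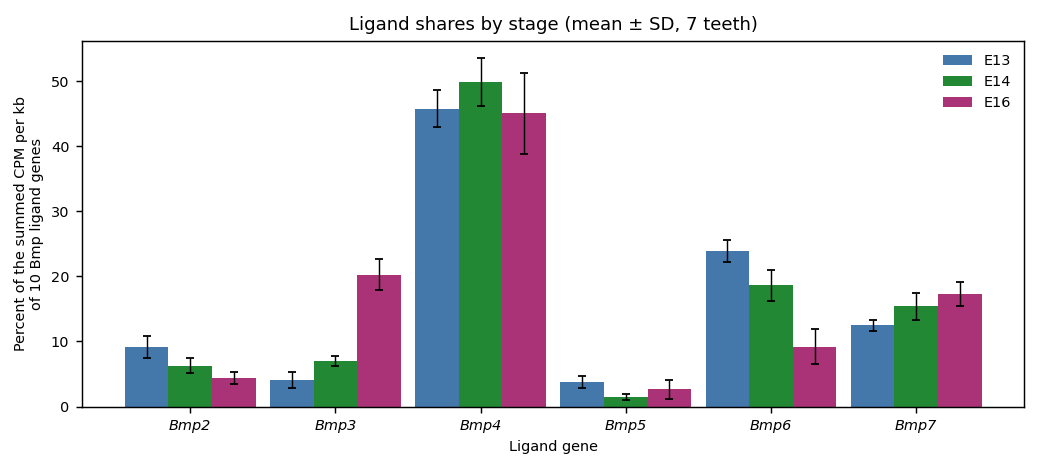
Share of each of 6 ligand genes in the summed CPM per kb of 10 Bmp ligand genes (y axis, percent), as mean and SD of the 7 teeth of each stage. The Bmp4 bars are near 45 to 50% at each stage, while the Bmp3 bars increase and the Bmp2 and Bmp6 bars decrease.

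The ratio of Bmp2 to Bmp4 within a tooth, taken per kb, does not depend on the scaling of the library. It was 0.140, 0.189 and 0.273 in the lowest, median and highest E13 tooth, 0.0952, 0.119 and 0.184 at E14, and 0.0597, 0.0942 and 0.147 at E16. The mean log2 ratio fell by 0.65 from E13 to E14 (exact two-sided permutation test of 7 against 7 teeth, p = 0.00291, adjusted p = 0.00874 over the 9 ratio tests). It fell by 1.05 from E13 to E16 (exact permutation test, p = 0.00117, adjusted p = 0.00525). From E14 to E16 the difference of -0.39 did not pass (exact permutation test, p = 0.0932, adjusted p = 0.117).

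Bmpr1a, the type I receptor needed in the dental epithelium, had 192 to 229 CPM at E13, 201 to 237 at E14 and 189 to 285 at E16, with medians of 223, 225 and 201. All 3 ranges overlapped, and the log2 fold change was 0.02 ± 0.08 from E13 to E14, -0.02 ± 0.08 from E14 to E16 and -0.001 ± 0.08 from E13 to E16 (adjusted p between 0.872 and 0.994). The highest value was that of the left tooth of embryo 3 at E16, and the other 6 teeth of E16 reached 229 CPM. Of its exon bases, 290 are shared with the antisense gene Gm17110, which had at most 15 counts in a tooth.

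Bmpr1b, the second type I receptor, was far lower and fell from bud to cap. The lowest, median and highest tooth had 6.17, 10.04 and 16.6 CPM at E13, 2.71, 3.92 and 4.84 at E14 and 3.07, 5.89 and 7.39 at E16. No E14 tooth reached the lowest E13 tooth, while the E16 teeth overlapped both stages. The summed cartilage markers were also lower in every E14 tooth than in every E13 tooth. They were lower again at E16, at 7.40 to 26.2 CPM, when Bmp5 was higher than at E14. The part of these markers in the falls of Bmpr1b and Bmp5 was not tested. Bmpr1b fell by 1.42 ± 0.21 on the log2 scale from E13 to E14 (adjusted p = 3.09e-05), to 0.374 of its level. From E14 to E16 the value was 0.43 ± 0.21 (adjusted p = 0.137), and at E16 it was still 0.99 ± 0.21 lower than at E13 on the log2 scale, a fold change of 0.505 (adjusted p = 5.05e-04). The 2 steps differed by 1.85 ± 0.38 (adjusted p = 0.00158). Per kb, the ratio of Bmpr1b to Bmpr1a had a median of 0.0479 at E13, 0.0200 at E14 and 0.0251 at E16, and the ranges of E13 and E14 did not overlap. The mean log2 ratio fell by 1.38 from E13 to E14 (exact permutation test, p = 5.828e-04, the smallest that 7 against 7 teeth can give, adjusted p = 0.00525). From E13 to E16 it fell by 0.94 (exact permutation test, p = 0.00466, adjusted p = 0.0105), and the 0.44 from E14 to E16 did not pass (exact permutation test, p = 0.0740, adjusted p = 0.111). It passed with an adjusted p of 0.0294 when the left tooth of embryo 8 at E16 was left out.

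Bmpr2, the type II receptor of the members, was the highest of the 10 genes in CPM, with 347, 408 and 419 CPM in the lowest, median and highest E13 tooth, 462, 546 and 590 at E14 and 434, 494 and 606 at E16. Every E14 and every E16 tooth was above every E13 tooth. Bmpr2 rose by 0.44 ± 0.08 on the log2 scale from E13 to E14 (adjusted p = 3.47e-04), and the value from E14 to E16 was -0.07 ± 0.08 (adjusted p = 0.534). The steps differed by -0.52 ± 0.14 (adjusted p = 0.0139), with an adjusted p of 0.0528 when the left tooth of embryo 6 at E14 was left out. From E13 to E16 it was 0.37 ± 0.08 higher (adjusted p = 7.87e-04).

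**Figure D4:**
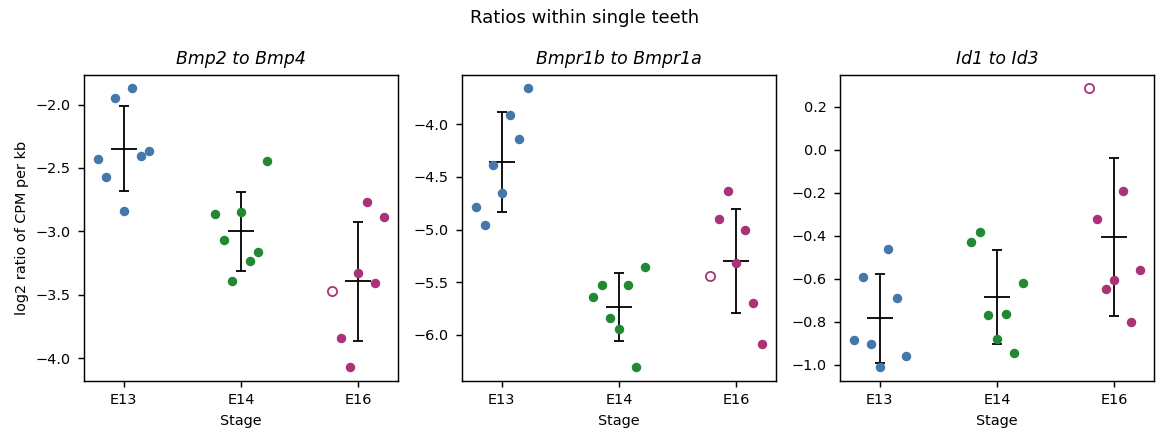
Log2 ratios of CPM per kb within single teeth (y axis) of Bmp2 to Bmp4, Bmpr1b to Bmpr1a and Id1 to Id3 at E13, E14 and E16, with mean and SD of 7 teeth. The open circle is the left tooth of embryo 3 at E16, which has the highest Id1 to Id3 ratio. The E14 teeth lie below all E13 teeth for Bmpr1b to Bmpr1a.

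Of the 2 target genes, Id1 rose from bud to cap. Its lowest, median and highest values were 34.0, 39.4 and 56.9 CPM at E13, 49.7, 58.3 and 62.5 at E14 and 44.5, 61.6 and 71.7 at E16. At E14 and at E16, 5 of 7 teeth were above all E13 teeth. Id1 rose by 0.46 ± 0.11 on the log2 scale from E13 to E14 (adjusted p = 0.00411), and the value from E14 to E16 was 0.10 ± 0.11 (adjusted p = 0.554). From E13 to E16 it was 0.55 ± 0.11 higher (adjusted p = 2.31e-04).

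Id3 had 95.7, 112 and 122 CPM in the lowest, median and highest E13 tooth, 117, 143 and 173 at E14 and 56.4, 138 and 161 at E16. Its values were 0.38 ± 0.15 from E13 to E14 (adjusted p = 0.0750) and 0.24 ± 0.15 from E13 to E16 (adjusted p = 0.209), and neither passed with all teeth. The left tooth of embryo 3 at E16, with the 56.4 CPM, was below every other tooth of the 3 stages. Without it both comparisons passed, with values of 0.38 (adjusted p = 0.00125) and 0.38 (adjusted p = 7.1e-04), and from E14 to E16 the value was 0.005 (adjusted p = 0.973). The ratio of Id1 to Id3 per kb had a median of 0.543 at E13, 0.588 at E14 and 0.678 at E16. From E13 to E16 the mean log2 ratio rose by 0.38 (exact permutation test, p = 0.0268, adjusted p = 0.0483), a result close to the threshold. It lost the threshold in 10 of the 14 cases in which 1 tooth was left out, with adjusted p up to 0.0965. These were the teeth of embryos 1, 3, 5, 9 and 10 at E13 and, at E16, the left tooth of embryo 3, 5, 6 or 8 and the right tooth of embryo 7. The other 2 comparisons of this ratio did not pass (differences of 0.10 and 0.28, exact permutation tests, adjusted p = 0.385 and 0.117).

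The rest of the pathway was followed in a list of 53 further genes, of which 48 passed the filter on low counts (not Bmp10, Bmp15, Gdf2, Hjv and Sost). From E13 to E14, 11 were higher and 3 lower (of all genes, 11.3% and 8.47%). Between E14 and E16, 10 were higher and 11 lower (15% and 13.1%), and from E13 to E16, 15 were higher and 14 lower (21.6% and 19.6%). The genes named below as highest of their role are so in CPM, which is not corrected for length. The median log2 fold changes of the 48 tested genes were 0.07, -0.08 and -0.08 in these comparisons. Of the 4 Smad transducers, 0 changed from E13 to E14 in edgeR, also at an unadjusted p below 0.05 and with DESeq2. From E14 to E16 Smad9, which is an effector Smad of the pathway, was the 1 that was lower (-0.66 ± 0.14, adjusted p = 6.53e-04). Smad5 was the highest of them, with 255, 243 and 238 CPM (means, n = 7).

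Secreted antagonists and modulators, which bind Bmps or their partners outside the cell, changed in both directions. Of 18 tested, 4 were higher and 1 lower from E13 to E14 (of all genes, 11.3% and 8.47%). From E14 to E16, 6 were higher and 4 lower (15% and 13.1%). The median log2 fold change of the 18 was 0.02 from E13 to E14 and 0.13 from E14 to E16. The 4 that were lower from E14 to E16 are all named below, while the fold changes of the 6 higher ones are not given. Sostdc1, an epithelial Bmp and Wnt antagonist, rose by 1.23 ± 0.22 from E13 to E14 (adjusted p = 1.9e-04), from a mean of 97.7 to 229 CPM. From E14 to E16, Bmper fell by 2.37 ± 0.11 (adjusted p = 1.84e-13), the Bmp antagonist gene Grem1 fell by 2.17 ± 0.20 (adjusted p = 9.19e-09), Chrdl2 fell by 2.14 ± 0.29 (adjusted p = 3.93e-06), and Vwc2 fell by 2.34 ± 0.33 (adjusted p = 6.43e-06), all on the log2 scale. Bmper had a mean of 60.6 CPM at E14 and 11.7 at E16, while the other 3 were at most 8.59 CPM at any stage. Fstl1 was the most abundant of the list, with means between 463 and 516 CPM.

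Of the 10 other ligand genes listed, 7 were tested, and 1 was higher and 1 lower from E13 to E14 (of all genes, 11.3% and 8.47%). Bmp8a rose by 2.95 ± 0.40 (adjusted p = 9.29e-06), from a mean of 0.159 to 1.27 CPM, and reads of Bmp8a and its near copy Bmp8b may have been split between them, so its value is uncertain. Gdf7 fell by 1.21 ± 0.25 (adjusted p = 9.86e-04) and then rose by 2.28 ± 0.25 from E14 to E16 (adjusted p = 1.25e-07). Bmp6 was the highest of these ligands, with means of 51.7, 47.9 and 27.1 CPM. Of the 7 other receptors and co-receptors tested, 2 were higher and 1 lower from E13 to E14. From E14 to E16, 0 changed in edgeR (of all genes, 28.1%), also at an unadjusted p below 0.05 and with DESeq2. Acvr1, a type I receptor, had the highest CPM of these over all teeth, but Acvr2a was higher at E13 and Eng at E16. It had means of 59.1, 77.1 and 71.5 CPM.

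Among the 6 other target genes listed, 3 were higher and 0 lower from E13 to E14 in edgeR (of all genes, 11.3% and 8.47%). At an unadjusted p below 0.05 or with DESeq2, 0 were lower. From E14 to E16, 2 were higher and 2 lower (of all genes, 15% and 13.1%). Cdkn1a, a cell cycle inhibitor gene induced in the enamel knot, rose by 2.09 ± 0.20 from E13 to E14 (adjusted p = 3.48e-08). Msx2, a homeobox gene that responds to Bmps, rose by 1.60 ± 0.22 (adjusted p = 9.63e-06) and by a further 2.15 ± 0.21 to E16 (adjusted p = 2.39e-08), to a mean of 65.9 CPM. Msx1, the related gene of the dental mesenchyme and the highest of these targets, had means of 447, 394 and 179 CPM. The 6 inhibitors within the cell and at its membrane included 1 that was higher from E13 to E14 and 1 higher and 2 lower from E14 to E16. Ski, a Smad corepressor gene and the highest of them, had means of 314, 389 and 337 CPM.

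To find genes with a pattern like that of a member, the log2 levels over the 21 teeth were scaled to a mean of 0 and an SD of 1 for each of 14564 protein-coding genes, and the root mean square difference from the member was taken. Identical patterns give 0. Values are listed for the most similar gene, and the median over all genes was between 1.33 and 1.495. Bmp3 was closest to Ndrg1 (0.183), Cobll1 and Ahnak2, and Bmp7 to Ucp2 (0.228), Trp53i11 and Dlx3. Bmp4 was closest to Nabp2 (0.277), Gapdh and Gatc, and Id3 to Rps2 (0.314), Csnk2b and Dnajb12. Bmpr2 was closest to Tmem47 (0.302), Rock2 and Larp4, and Bmpr1a to Arhgap5 (0.375), Mier1 and Krit1. Id1 was closest to Elovl1 (0.417) and Npdc1, and Bmp2 to Cdkn1c (0.435), Sfxn1 and Srrd. Bmpr1b was closest to Csrnp3 (0.486), Asph and Lgr5, and Bmp5 to Kcnj2 (0.492), Tmem132d and Htr7. Among the members themselves, the smallest differences were 0.507 between Bmp4 and Id3 and 0.592 between Bmp7 and Id1, while Bmp5 and Bmpr1b were 1.02 apart. All of these values share the 21 libraries, the deviating E16 tooth among them.

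The salmon table adds E15 between the cap and bell stages. The E15 teeth come from a separate set of samples. Their labels name storage in RNAlater, which the authors also give for their other RNAseq teeth. Stage and sample set cannot be told apart for E15. Levels are therefore compared only within this table. From E13 to E15, 5 members changed (background 26.8% of 13447 genes). Bmp3, Bmp4 and Bmp7 were higher, against 18.3% of all genes, and Bmp2 and Bmpr1b were lower, against 8.49%. From E15 to E16, Bmp3 and Id1 were higher and 0 members were lower (edgeR, likewise at an unadjusted p below 0.05 and with DESeq2), when 6.33% of all genes were called, 3.64% as higher and 2.69% as lower.

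Bmp3 had 11.3 to 27.8 CPM at E13, 52.8 to 90.7 at E15 and 95.2 to 170 at E16, and no 2 stages overlapped. It rose by 1.84 ± 0.18 to E15 (adjusted p = 3.87e-08) and by 0.97 ± 0.18 to E16 (adjusted p = 8.92e-04). Bmp4 had 62.4 to 71.4 CPM at E13 and 73.9 to 143 at E15, without overlap, and rose by 0.68 ± 0.19 (adjusted p = 0.00993). Bmp7 had 29.3 to 36.1 and 37.3 to 66.1 CPM, also without overlap, and rose by 0.63 ± 0.17 (adjusted p = 0.00612). From E15 to E16, Bmp7 had a value of 0.36 ± 0.17 (adjusted p = 0.264), and 0.49 with an adjusted p of 0.00404 without the left tooth of embryo 3 at E16.

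Id1 was, with Bmp3, a member that rose from E15 to E16. The lowest, median and highest tooth had 40.0, 46.7 and 66.6 CPM at E13, 36.3, 43.1 and 48.2 at E15 and 61.5, 71.9 and 84.1 at E16, so that every E16 tooth was above every E15 tooth. The value from E13 to E15 was -0.20 ± 0.11 (adjusted p = 0.211), and Id1 rose by 0.78 ± 0.11 from E15 to E16 (adjusted p = 8.73e-05). Id3 had 112 to 140 CPM at E13, 128 to 186 at E15 and 75.1 to 189 at E16, and neither step passed (adjusted p = 0.265 and 0.945). In the read count table Id1 at E14 had been above its E13 level, as given above, and E14 and E15 cannot be set side by side because they are in different tables.

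Bmpr1b was again lower than at E13, with 6.81 to 18.7 CPM at E13, 2.27 to 6.06 at E15 and 3.27 to 8.11 at E16. It fell by 1.70 ± 0.29 to E15 (adjusted p = 1.04e-04), and the value from E15 to E16 was 0.74 ± 0.29 (adjusted p = 0.151), with 0.98 and an adjusted p of 0.0455 when the left tooth of embryo 5 at E15 was left out. Bmp5 had a value of -0.55 ± 0.26 to E15 (adjusted p = 0.125), and -0.74 with an adjusted p of 0.0427 without the same tooth. The right tooth of embryo 4 at E15 was low for both main receptors, with 168 CPM of Bmpr1a and 332 of Bmpr2, where the other 5 teeth had 269 to 304 and 574 to 707. Without it Bmpr2 rose from E13 to E15 by 0.48 (adjusted p = 0.00167), against 0.36 ± 0.14 with it (adjusted p = 0.0616) and 0.36 without the left tooth of embryo 3 at E16 (adjusted p = 0.0260). Bmp2 fell by 0.54 ± 0.19 to E15 (adjusted p = 0.0398), a call that was lost, with adjusted p up to 0.0964, when any of 9 teeth of E13 and E15 was left out. These were the teeth of embryos 1, 3, 7, 9 and 10 at E13 and of embryos 1, 4, 5 and 6 at E15. From E13 to E16, the salmon table called the same 7 members in the same directions as the read counts, with 36.4% of all genes called, 21.7% as higher and 14.7% as lower.

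**Figure D5:**
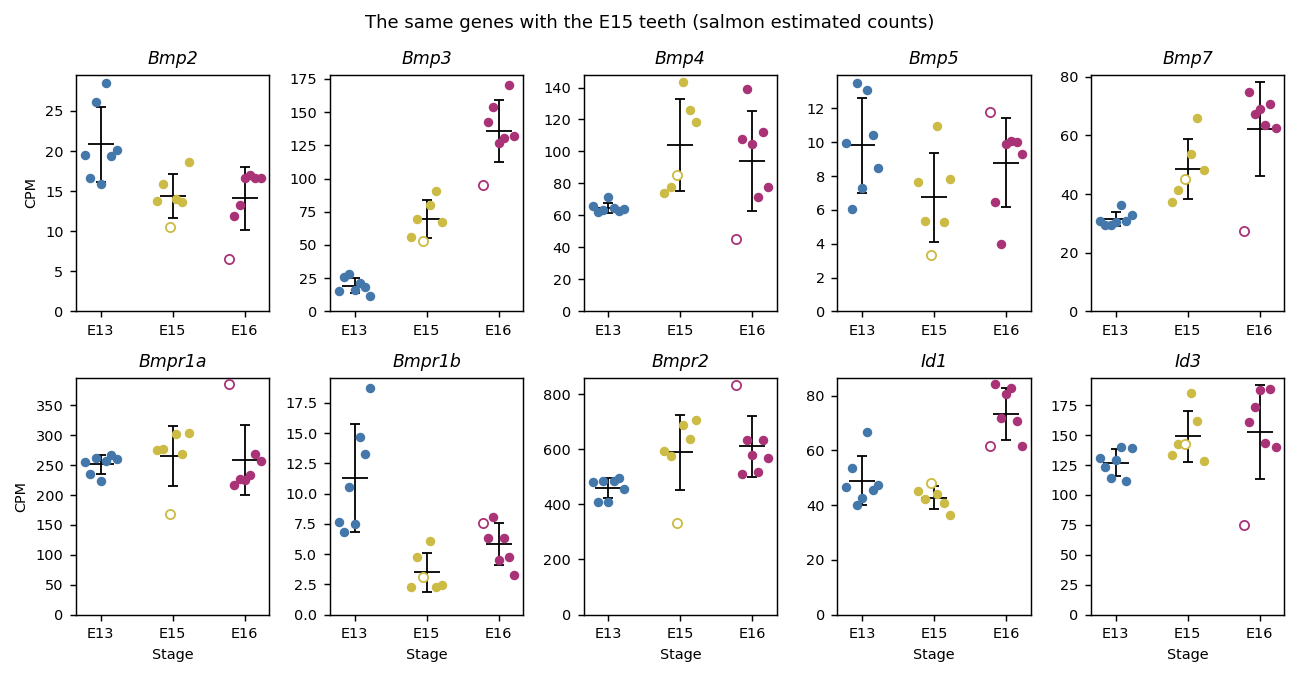
CPM of the 10 genes in single teeth in the salmon table (7 teeth at E13, 6 at E15, 7 at E16), with each y axis from 0 and the mean and SD as bars. Open circles are 2 teeth, the right one of embryo 4 (E15) and the left one of embryo 3 (E16). Every E16 tooth of Id1 is above every E15 tooth.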

How the data were processed

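Single molar tooth germs were measured by RNAseq. For the stages E13, E14 and E16, the deposited values are raw counts per gene without normalization, which the authors obtained with HTSeq from reads placed by STAR on GRCm38 with Ensembl release 90, after quality filtering (FastQC, AfterQC, Trimmomatic). The strand setting is not given in the sources used here. The second deposited table holds estimated counts per gene from salmon, in whole numbers, for 14185 genes; the processing notes of the E15 samples name version 0.99.0, while its index and why these genes were listed are not given in the sources used here. Of the 7 E15 samples, the right tooth of embryo 5 was not analysed here. A column of the read count table in which the embryo is written X was taken as embryo 10 at E13.

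Gene names, coordinates and exon lengths came from the GENCODE annotation of GRCm38. Differences were tested by quasi-likelihood in edgeR (4.0.16, under R 4.3.3), with the stage as factor, TMM scaling and the filterByExpr filter, in one fit of 21 libraries (19101 genes) and one of 20 for the salmon table (13447 genes), and p values were adjusted over all genes by the Benjamini-Hochberg method. SEs were taken as the size of the log2 fold change over the square root of the F statistic. Depth limits the precision only of the weakly expressed genes, since the coefficient of variation between teeth beyond counting error was 21.2%. Ratios within a tooth were compared with exact two-sided permutation tests over 3432 splits. Some teeth came from the same embryo, and the p values measure the spread between teeth. No 2 teeth of a stage agreed within sampling noise (smallest chi-square per degree of freedom 7.47). Named genes are the 10 members, up to 5 other pathway genes per comparison with the largest changes among those that passed, the most abundant gene of each role, and the 3 genes most like each member, of which 1 is not reported here. The members and lists were chosen with earlier results of these data known. The test was tested on simulated data. Alternatives were DESeq2 (version 1.42.0), RLE factors, 2 other filters, side or embryo number as a factor, embryos summed, fits of 2 stages, the salmon table, and each tooth left out.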

Additional observations from a re-analysis of the deposited data

Results flagged for a closer look

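Of 69 groups of teeth tested for a value far from the rest of its stage (Dixon's ratio of gap to range above its 95% critical value), 12 were found. Chance gives about 1 in 20 when groups are independent. These groups are not, since the genes share teeth and both tables hold the E13 and E16 teeth, so an excess was not tested. In the read counts at E16, 4 of the 12 were values of the left tooth of embryo 3. It was lowest for Bmp2 (4.90 CPM, the other teeth 10.4 to 14.54), for Bmp7 (22.2 CPM, the others 55.5 to 65.7) and for Id3 (56.4 CPM, the others 119 to 161), and highest for Bmpr1a (285 CPM, the others 189 to 229). In the salmon table the same tooth was lowest for Bmp7 (27.3 CPM) and Id3 (75.1 CPM) and highest for Bmpr1a (385.5 CPM) and Bmpr2 (834 CPM).

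At E13, the right tooth of embryo 5 was highest for Bmp4 in both tables, with 62.6 CPM against 54.4 to 57.7 in the read counts and 71.4 CPM in the salmon table. At E15, the right tooth of embryo 4 was lowest for Bmpr1a (168 CPM, the others 269 to 304) and Bmpr2 (332 CPM, the others 574 to 707). These libraries are counted in all comparisons above unless the text says that a tooth was left out.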

How the results depend on the processing

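The number of members that changed stayed within 1.5 times of the reported number under each alternative. It was 5 to 8 for E13 and E14, 2 to 4 for E14 and E16, 5 to 8 for E13 and E16, 2 to 4 for the difference between the steps, 4 to 6 for E13 and E15, and 2 or 3 for E15 and E16. No called fold change of a member changed sign. DESeq2, RLE factors, both filters and side as a factor each changed no call of a member.

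Embryo number does not mark the same animal in different stages, and same-numbered teeth deviated together only weakly (median r of 0.0357 over 15 pairs, range -0.09 to 0.199). With embryo number as a replicate block, 5, 2 and 5 members changed between E13 and E14, E14 and E16, and E13 and E16, with 8.78%, 25.4% and 27.3% of all genes called. The fold change of Bmp7 from E13 to E14 (adjusted p = 0.104) and from E14 to E16 (0.117), and that of Bmp4 (0.394) and Bmpr2 (0.0549) from E13 to E16, no longer passed. With the teeth of an embryo summed, Bmp7 from E14 to E16 (adjusted p = 0.100) and the difference of the Bmpr2 steps (0.0610) did not pass. In fits of only the 2 stages compared, Bmp4 (adjusted p = 2.55e-04) and Id3 (0.00102) passed from E13 to E14, with 31.2% of all genes called in that fit, and Bmp7 from E14 to E16 did not (0.0851). Without 3 teeth chosen after seeing the data (the left tooth of embryo 3 at E16, of embryo 7 at E13 and of embryo 8 at E14), 8, 3 and 8 members changed. The share of all genes called in that setting is not reported here. Without the E16 tooth alone it was 30.4%, 34.3% and 48.7%, against 19.7%, 28.1% and 41.3% with all teeth. The causes were not tested.

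The sign changed only for fold changes that did not pass. For Bmpr1a from E13 to E16 the value became 0.005 with DESeq2, RLE factors and the replicate block, 0.001 without a filter, 0.031 with embryos summed, 0.013 in the fit of 2 stages and 0.043 in the salmon table. With embryos summed it was also 0.020 from E14 to E16 and 0.008 for the difference of the steps. Id3 from E13 to E16 was -0.021 with the block, and without the 3 teeth Id3 from E14 to E16 was 0.014 and the step differences of Bmp2 and Bmp7 were 0.250 and 0.037. The step difference of Bmp2 was 0.011 without a filter. With each tooth left out in turn, the ranges were -0.097 to 0.206 for the Bmp2 and -0.200 to 0.031 for the Bmp7 step difference, and -0.007 to 0.039, -0.084 to 0.024, -0.065 to 0.045 and -0.102 to 0.012 for Bmpr1a from E13 to E14, E14 to E16, E13 to E16 and in the step difference. For Id3 from E14 to E16 the range was -0.183 to 0.005. From E15 to E16 the ranges were -0.104 to 0.094 for Bmp2, -0.161 to 0.003 for Bmpr1a, -0.068 to 0.112 for Bmpr2 and -0.019 to 0.155 for Id3. The log2 ratio of Id1 to Id3 from E13 to E16 ranged from 0.263 to 0.444, and that of Bmpr1b to Bmpr1a from E14 to E16 from 0.329 to 0.570.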
